A study of Mus musculus with 21 samples.

Results

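Kruppel-like factors (KLFs) are zinc finger transcription factors that bind GC-rich and CACCC DNA boxes. The 8 described here are Klf2, Klf3, Klf4, Klf6, Klf7, Klf9, Klf10 and Klf13, chosen by name from the 23420 gene symbols of the count table. They were followed in 21 RNA-Seq libraries of sorted inflammatory monocytes (IMs), the Ly6C-high CD11b+ cells that leave the bone marrow (BM) and enter inflamed tissue and tumors. BM IMs came from healthy adult FVB mice (n = 3) and healthy adult DBA2 mice (n = 3). Tumor-infiltrating IMs (TIMs) came from primary lung tumors of LN2E1 cells injected orthotopically into FVB mice (n = 5) and from the lymph node metastases of this model (n = 5). A further group came from lung metastases formed by LN4K1 cells after intravenous injection into DBA2 mice (n = 5). LN2E1 and LN4K1 are metastatic derivatives of the murine squamous lung carcinoma lines KAL and KLN-205.

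Each tumor model was 1 cell line in 1 strain with 1 injection route, so line, strain and route cannot be told apart. The methods define the cells as CD45+ CD11b+ Ly6G- Ly6C-high, isolated with a magnetic monocyte kit, by flow sorting or by both. Siglec-F+ cells were removed when lung tissue was sorted, and the example gating for tumors and healthy marrow also starts from Siglec-F- cells. Lung tissue was digested with enzymes before sorting, which is not described for marrow, so a difference between lung TIMs and BM IMs cannot be told apart from this preparation. The methods speak of technical replicates, and no label says that the libraries of a group came from separate mice. The p-values may therefore measure only the technical spread between these libraries.

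Most KLFs share the DNA-binding domain and differ in the partners their other domains recruit. Klf2 holds lymphocytes and monocytes in a resting state and is induced through the kinases MEK5 and ERK5 and the MEF2 factors. Klf4 is needed for the formation of Ly6C-high monocytes. Klf6 is a fast response gene of injury and inflammation that works with NF-kB in macrophages, and Klf7 is its close relative, best known from developing neurons. Klf10 and its relative Klf11 are early targets of TGF-beta. Klf9, which glucocorticoids induce, and Klf13, which binds the Ccl5 promoter in T cells, both recruit the Sin3 corepressor, and Klf3 represses genes through CtBP.

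The promoters of Klf2, Klf4, Klf9 and Klf13 are shown because they are the 4 of 7 member promoters that hold the core of a CREB/ATF site, with a MEF2 box in Klf2 and an AP-1 box in Klf9. They are the RefSeq bases (GRCm38.p6) just upstream of the annotated start, written 5' to 3' on the strand of the gene. Klf2 is cut at its earlier GENCODE start (chr8:72319033) and shown with 221 bases. Its motifs were counted in all 250 bases, which end at chr8:72319061. Klf2 lies at chr8:72318812-72319032 on the plus strand, Klf4 at chr4:55532476-55532725 on the minus strand, Klf9 at chr19:23140976-23141225 on the plus strand and Klf13 at chr7:63938916-63939165 on the minus strand. Capitals mark CTA and TAG with any 4 bases between them (the MEF2 box), TGACG or its reverse complement CGTCA (the core of a CREB/ATF site) and TGANTCA (the AP-1 box).
Klf2: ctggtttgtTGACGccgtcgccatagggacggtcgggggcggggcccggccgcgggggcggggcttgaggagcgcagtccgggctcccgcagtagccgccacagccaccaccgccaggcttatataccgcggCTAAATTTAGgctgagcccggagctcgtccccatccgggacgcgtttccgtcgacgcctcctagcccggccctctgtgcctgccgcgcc
Klf4: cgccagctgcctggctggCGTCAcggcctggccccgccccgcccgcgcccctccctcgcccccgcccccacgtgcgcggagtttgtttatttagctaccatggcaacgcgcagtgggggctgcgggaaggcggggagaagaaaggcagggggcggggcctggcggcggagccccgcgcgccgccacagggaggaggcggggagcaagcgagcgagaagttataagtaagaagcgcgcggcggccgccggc
Klf9: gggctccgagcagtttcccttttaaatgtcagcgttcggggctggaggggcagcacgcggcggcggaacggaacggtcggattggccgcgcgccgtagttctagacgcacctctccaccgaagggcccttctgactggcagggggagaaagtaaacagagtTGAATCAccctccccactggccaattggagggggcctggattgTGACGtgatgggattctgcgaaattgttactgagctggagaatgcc
Klf13: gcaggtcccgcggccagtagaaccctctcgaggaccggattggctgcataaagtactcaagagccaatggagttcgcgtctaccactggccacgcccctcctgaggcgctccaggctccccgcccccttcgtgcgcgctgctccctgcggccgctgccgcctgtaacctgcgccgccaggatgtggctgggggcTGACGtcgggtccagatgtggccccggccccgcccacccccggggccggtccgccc

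Of the 8 genes, 7 matched an entry of the promoter table, and motifs were counted on both strands in the 250 bases upstream of the RefSeq start. A MEF2 box stood in 1 of 7 promoters, that of Klf2, against 3.20% of the 32851 promoters of the table. The CREB/ATF core stood in 4 of 7, those of Klf2, Klf4, Klf9 and Klf13, against 17.8% of all promoters. An AP-1 box stood in 1 of 7, that of Klf9, against 6.75%. The CCNCNCCC box that KLF proteins bind, which has the reverse complement GGGNGNGG, stood in 6 of 7, with 10 matches in Klf3, 9 in Klf4, 8 in Klf7, 5 in Klf13, 4 in Klf2, 2 in Klf6 and none in Klf9, against 45.9%. These promoters held 59.2% to 78.4% G and C, against a median of 52.4% in the table, and the shares over all promoters are not matched for this.

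Libraries held 80772922 to 101043568 gene counts, and the lowest count of any of the 8 genes in any library was 279, for Klf7. Levels are in CPM, the count of a gene relative to the TMM-scaled total count of its library, and group values are mean ± SD. The log2 fold changes, standard errors and adjusted p-values are from the quasi-likelihood test of edgeR, adjusted after Benjamini and Hochberg over all genes tested, and a gene rose or fell where the adjusted p was under 0.05. Both LN2E1 comparisons use the same FVB BM libraries, so they are not independent of each other. In bulk RNA, fewer cells of a type and less RNA per cell cannot be told apart.

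A few libraries stood apart from their group. DBA2 BM replicate 3 held 191 CPM of the immediate early gene Fosb, against 23.2 and 30.0 in the other DBA2 BM libraries, and 2375 CPM of Jun, against 874 and 880. LN4K1 lung replicate 3 lay 0.31 log2 units above its group mean in the median of the 935 genes with the least GC, and 0.36 below it in 1355 genes with 54% to 58% GC. FVB BM replicate 1 had the highest Klf2 and Klf13 of its group. Results that rest on any of these are given with and without them. Ly6c2 and Ccr2, markers of inflammatory monocytes, had group means of 1245 to 3023 CPM and 714 to 2664 CPM. The Ly6c2 mean was 3023 CPM in FVB BM, 1245 in primary tumors and 1337 in lymph nodes. It was 2583 CPM in DBA2 BM and 1483 in lung metastases. Ccr2 went the other way, with 714 CPM in FVB BM, 1133 in primary tumors and 932 in lymph nodes. Its mean was 1300 CPM in DBA2 BM and 2664 in lung metastases. Of 9 inflammatory monocyte markers tested, with Ly6c2 and Ccr2 among them, 7 rose and 2 fell in primary tumors. In lymph nodes 6 rose and 2 fell, and in lung metastases 6 rose and 1 fell. Their median log2 fold changes were 1.57, 1.67 and 0.72. The markers of neutrophil precursors summed to 4047 to 4955 CPM in FVB BM and 2811 to 3406 in DBA2 BM, against at most 494 in any TIM library, and 7 of 7 fell in each TIM group. Eosinophil markers summed to 431 to 1138 CPM in BM and at most 69.5 in TIMs. Fibroblast markers summed to at most 0.359 CPM in BM, 365 to 1112 in primary tumors (6 of 6 rose), 0.836 to 87.1 in lymph nodes (4 of 4 tested rose) and 1.31 to 43.0 in lung metastases (2 of 4 tested rose). Macrophage markers summed to 1234 to 1387 CPM in FVB BM, 2177 to 2863 in primary tumors and 2227 to 3613 in lymph nodes, and to 754 to 1904 CPM in DBA2 BM and 3663 to 5305 in lung metastases. Of 7 such markers, 2, 1 and 1 rose in primary tumors, lymph nodes and lung metastases, and 1 fell in the lung. Dendritic cell markers summed to 78.9 to 112 CPM in BM, 209 to 382 in primary tumors, 148 to 743 in lymph nodes and 139.5 to 354 in lung metastases, where 6, 5 and 3 of 8 rose and 1 fell in the lung. The part of these cells in the KLF differences was not tested.

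Against FVB BM IMs, primary tumor TIMs showed a rise of 3 of the 8 KLFs (Klf6, Klf7 and Klf10) and a fall of 2 (Klf9 and Klf13). Of all genes tested, 61.9% were called in this comparison, 33.3% as higher and 28.6% as lower, so 5 of 8 is near the background. Lymph node TIMs showed the same 3 rises and a fall of Klf13, against 37.4% of all genes called, 20.2% higher and 17.2% lower. LN4K1 lung TIMs showed a rise of 4 (Klf3, Klf7, Klf10 and Klf13) and no fall, against 24.9% of all genes called, 13.9% higher and 11.0% lower. Klf7 and Klf10 rose in all 3 TIM groups, which 7.94% of the 12782 genes tested in all 3 did, and none of the 8 fell in all 3, which 7.01% did. The median log2 fold change of the 8 genes was 0.33, 0.43 and 0.87 in these comparisons, against 0.08, -0.04 and 0.03 over all genes. By the stricter threshold for a DEG (adjusted p under 0.0001 and a log2 fold change above 1 in size), Klf6 in primary tumors passed, where 12.9% of all genes did. By the main edgeR test, none of the 8 passed it in lymph nodes (5.71% of all genes), in lung metastases (2.97%) or between the LN2E1 groups (0.0297%). This depended on the setting. In at least 1 other setting Klf6 and Klf7 passed it in lymph nodes, Klf3 and Klf7 in lung metastases and Klf7 in primary tumors. DESeq2 with shrinkage put more genes past it, 4014 of 16675 in primary tumors, 2415 of 14062 in lymph nodes and 1588 of 14668 in lung metastases.

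**Figure D1:**
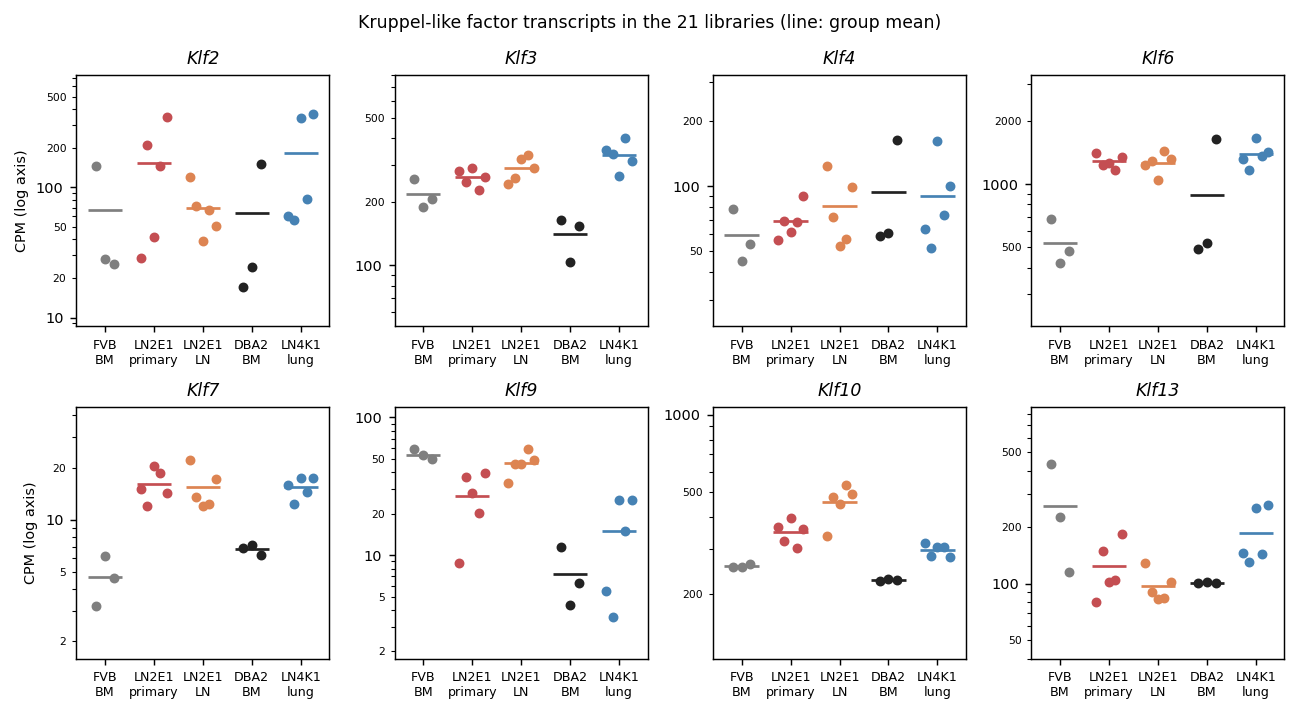
CPM of the 8 KLFs on a log axis in every library of the 5 groups, with 1 panel per gene, 1 point per library and a line at the group mean. Klf6 and Klf7 sit higher in LN2E1 TIMs than in FVB BM without overlap, whereas Klf2 spreads from 25.9 to 146 CPM in FVB BM and from 28.6 to 345 CPM in primary tumors.

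Klf6 was the most abundant KLF. It read 679, 422 and 479 CPM in FVB BM replicates 1 to 3, against 1409, 1227, 1259.5, 1171 and 1351 CPM in primary tumor TIMs and 1238, 1291, 1045, 1444 and 1313 CPM in lymph node TIMs. Every LN2E1 TIM library therefore lay above every FVB BM library. The rise was 2.40-fold in primary tumors (log2 fold change 1.27 ± 0.15 SE, adjusted p = 7.36e-05) and 2.41-fold in lymph nodes (1.27 ± 0.17, adjusted p = 0.000341), and both held with any 1 library left out. The lymph node and primary tumor levels of Klf6, 1266 ± 145 and 1283 ± 95.7 CPM (SD, n = 5 each), differed by -0.01 ± 0.09 on the log2 scale (adjusted p = 0.968).

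The DBA2 libraries were split for Klf6. Replicates 1 and 2 read 490.4 and 525 CPM, but replicate 3, the library with high immediate early genes, read 1649.6 CPM and overlapped the LN4K1 lung TIMs at 1316, 1172, 1666, 1356 and 1425 CPM. With all libraries the lung difference in Klf6 was 0.56 ± 0.37 on the log2 scale and was not called (adjusted p = 0.317). Without DBA2 BM replicate 3 it was 1.37 (adjusted p = 0.000885), and without replicate 3 of both groups it was 1.30 (adjusted p = 6.44e-05). Thus 1 marrow library decided whether Klf6 passed in this model.

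Klf7, a much less abundant relative of Klf6, rose in every TIM group. It read 3.17, 6.22 and 4.62 CPM in FVB BM, 15.0, 12.1, 20.4, 18.5 and 14.3 CPM in primary tumors and 22.2, 13.6, 12.0, 12.3 and 17.2 CPM in lymph nodes. In the DBA2 strain the BM libraries read 6.86, 7.20 and 6.25 CPM and the LN4K1 lung TIMs 16.0, 12.4, 17.5, 14.5 and 17.5 CPM. No TIM library overlapped the marrow of its strain. The rise was 3.39-fold in primary tumors (log2 1.76 ± 0.26, adjusted p = 0.00031), 3.31-fold in lymph nodes (1.73 ± 0.34, adjusted p = 0.00281) and 2.18-fold in LN4K1 lung metastases (1.12 ± 0.17, adjusted p = 0.00133), and leaving out any 1 library ended none of these calls. The study had selected Klf7 on these same samples, so its direction here is not independent evidence. Reads of Klf7 may also include those of the gene Gm26649 on the opposite strand, which overlaps 39.3% of the Klf7 exon bases, because the libraries do not record strand.

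Klf10 rose by smaller amounts with little spread. It read 254, 254 and 263 CPM in FVB BM and 224, 229 and 227 CPM in DBA2 BM. Primary tumor TIMs read 365, 322, 395, 302 and 359.7 CPM, lymph node TIMs 335, 476, 449.6, 534 and 491 CPM, and LN4K1 lung TIMs 316, 282, 306, 305 and 278 CPM. All TIM libraries lay above all BM libraries of their strain. The rise was 1.34-fold in primary tumors (log2 0.42 ± 0.10, adjusted p = 0.0058), 1.78-fold in lymph nodes (0.83 ± 0.15, adjusted p = 0.00176) and 1.24-fold in lung metastases (0.32 ± 0.10, adjusted p = 0.0443). Both LN2E1 rises held with any 1 library left out, whereas the lung call held in 2 of 8 such fits and in 4 of 8 other settings. Lymph node TIMs stood above primary tumor TIMs in 4 of 5 libraries, by 0.40 ± 0.12 on the log2 scale (adjusted p = 0.0592). This difference passed in the fit of all 5 groups (adjusted p = 0.0175), with DESeq2 (adjusted p = 0.0265) and without lymph node replicate 1 (adjusted p = 0.00615).

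Klf11, the paralog of Klf10, did not move with it in the lung. It measured 75.9 ± 15.9 CPM in FVB BM (SD, n = 3), 87.4 ± 9.45 in primary tumors and 120.1 ± 27.6 in lymph nodes (n = 5 each), and it rose in lymph nodes by 0.66 ± 0.22 on the log2 scale (adjusted p = 0.0404). In the DBA2 strain Klf11 fell from 82.8 ± 8.15 CPM in BM (n = 3) to 49.4 ± 15.4 CPM in lung metastases (n = 5), by 0.82 ± 0.26 on the log2 scale (adjusted p = 0.0494). The change of Klf11 in primary tumors was higher than its change in lung metastases by 1.01 ± 0.33 (interaction, adjusted p = 0.0339).

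The early TGF-beta response genes, a list of 12 that holds neither Klf10 nor Klf11, were read beside this pair. In primary tumors 8 of 12 rose and 1 fell, with a median of 1.36. In lymph nodes 6 of 11 tested rose and 1 fell, with a median of 1.19, and in lung metastases 6 of 12 rose and none fell, with a median of 0.77. Bhlhe40, a repressor of the clock and of cytokine genes, rose in primary tumors, lymph nodes and lung metastases by 3.90, 4.08 and 2.52 log2 units. Skil, which restrains SMAD proteins, rose by 3.31, 3.53 and 0.84, and Id3, an inhibitor of basic helix-loop-helix factors, by 2.44, 2.85 and 3.07. Pmepa1, which was near 0 in BM, reached a group mean of 1.01 CPM in primary tumors. Several of these genes also answer other signals.

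Klf3 rose in LN4K1 lung TIMs only by the main test. It read 164, 103 and 154 CPM in DBA2 BM and 351, 339, 266, 402 and 313 CPM in lung TIMs, with no overlap. The rise was 2.26-fold (log2 1.17 ± 0.19, adjusted p = 0.00191) and held with any 1 library left out. In FVB BM Klf3 read 257, 189 and 207 CPM, in primary tumors 279, 249, 288, 227 and 263 CPM and in lymph nodes 243, 259, 318, 333 and 291 CPM. These groups overlapped, and the differences of 0.24 ± 0.12 (adjusted p = 0.107) and 0.41 ± 0.15 (adjusted p = 0.0557) were not called. Without FVB BM replicate 1 the primary tumor difference was 0.40 and passed (adjusted p = 0.0178). The lymph node difference passed in 3 of 7 other settings and in 2 of 8 fits with 1 library left out, those without FVB BM replicate 1 and without lymph node replicate 1. A test of the difference itself put the Klf3 change in primary tumors below that in lung metastases by -0.91 ± 0.23 on the log2 scale (interaction, adjusted p = 0.00987), in a contrast that called 26.5% of all genes, 13.3% as lower.

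Among the 9 corepressors and regulators bound by KLF proteins, 1 rose and 3 fell in primary tumors, 2 fell in lymph nodes and 2 fell in lung metastases. Their medians were -0.16, -0.18 and 0.09. Hdac2, a histone deacetylase of the Sin3 complex, fell in all 3, from 109 ± 8.62 CPM in FVB BM to 53.5 ± 6.74 in primary tumors and 50.2 ± 6.86 in lymph nodes, and from 83.2 ± 1.98 CPM in DBA2 BM to 66.4 ± 3.31 in lung metastases. The scaffold Sin3a fell by 0.57 ± 0.20 on the log2 scale in primary tumors (adjusted p = 0.032) and by 0.62 ± 0.15 in lung metastases (adjusted p = 0.015). Ncor1, another corepressor, fell in primary tumors and lymph nodes by 1.46 and 1.58 log2 units, from an FVB BM level of 149 ± 78.9 CPM. Ctbp2, the partner of Klf3, was called in none of the 3.

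Klf2 varied more between libraries of one group than between groups. It read 146, 28.0 and 25.9 CPM in FVB BM, 28.6, 211, 41.4, 147 and 345 CPM in primary tumors, and 121, 72.0, 38.7, 66.5 and 50.7 CPM in lymph nodes. In DBA2 BM it read 17.2, 24.7 and 150 CPM and in LN4K1 lung TIMs 59.9, 56.7, 345, 81.5 and 370 CPM. The means of 155 ± 131 CPM in primary tumors and 183 ± 160 CPM in lung metastases exceeded the BM means of 66.6 ± 68.7 and 64.1 ± 74.8 CPM, but the groups overlapped. The differences were 1.20 ± 0.89 (adjusted p = 0.266), 0.07 ± 0.57 in lymph nodes (adjusted p = 0.938) and 1.42 ± 0.92 in the lung (adjusted p = 0.303). With SEs of this size, a change of 1 log2 unit could not be told from none.

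Single marrow libraries moved the Klf2 values. Without FVB BM replicate 1, the primary tumor difference became 2.53 and was not called (adjusted p = 0.0703), and the lymph node difference became 1.37 and passed (adjusted p = 0.0379). Without DBA2 BM replicate 3, the lung difference became 3.04 but was still not called. T cells and endothelium also express Klf2. T cell markers summed to 1.36 to 2.68 CPM in FVB BM, 8.99 to 29.4 in primary tumors, 4.16 to 59.2 in lymph nodes, 0.697 to 2.05 in DBA2 BM and 9.04 to 27.4 in lung metastases, with Cd3e at most 1.58 CPM in any library. Endothelial markers summed to 7.44 to 14.3 CPM in FVB BM, 60.6 to 83.4 in primary tumors, 70.7 to 129 in lymph nodes, 13.2 to 16.1 in DBA2 BM and 9.33 to 21.1 in lung metastases. Of 7 such markers, 4, 3 and 2 rose in the 3 TIM groups, and Cdh5 reached at most 4.54 CPM. The part of these cells in the Klf2 signal was not tested.

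Klf4 was not called in any of the 6 comparisons. It read 78.1, 45.4 and 54.2 CPM in FVB BM, 56.6, 68.9, 61.2, 68.3 and 90.2 CPM in primary tumors and 123, 72.0, 52.9, 56.7 and 98.7 CPM in lymph nodes. DBA2 BM read 58.7, 60.5 and 163 CPM, with the high value again in replicate 3, and LN4K1 lung TIMs read 63.4, 51.9, 160.5, 73.6 and 99.8 CPM. The groups overlapped throughout. The differences were 0.20 ± 0.19 in primary tumors (adjusted p = 0.389), 0.45 ± 0.30 in lymph nodes (adjusted p = 0.286) and -0.15 ± 0.43 in lung metastases (adjusted p = 0.843), and the last became 0.51 without DBA2 BM replicate 3. The markers of Ly6C-low patrolling monocytes, the cells that Ly6C-high monocytes turn into, summed to 401 to 679 CPM in FVB BM and 2911 to 5220 CPM in LN2E1 TIMs. They summed to 992 to 1079 CPM in DBA2 BM and 2337 to 4055 CPM in lung metastases, and 7, 9 and 7 of 10 rose. A gene that holds a large part of these TIM sums is also in the immediate early list below, so the summed levels of these lists are not independent.

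Upstream of Klf2 and Klf4, 5 of the 11 genes of the MEK5, ERK5 and MEF2 pathway rose in primary tumors and 1 fell, 5 rose in lymph nodes and 2 rose in lung metastases. Their medians were 0.42, 0.70 and -0.09. Mef2a, a transcription factor of this pathway, rose in all 3, by 1.15, 1.51 and 0.65 on the log2 scale. Mef2d rose by 1.46 in primary tumors and 1.60 in lymph nodes, and Hdac5, a deacetylase that holds MEF2 factors inactive, rose beside it by 1.90 and 1.67. Mapk7, which encodes ERK5, was not called in these 3 comparisons, at 0.42, 0.34 and -0.45. Between the marrows 2 of the 11 genes were higher in DBA2 BM and 1 was lower. Mapk7 was higher there by 3.23 ± 0.20 on the log2 scale (adjusted p = 5.76e-05). It measured 102 ± 9.26 CPM in DBA2 BM and 11.0 ± 2.67 CPM in FVB BM.

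Of 8 trafficking genes under the control of Klf2 in leukocytes, 4 rose and 2 fell in primary tumors, 4 rose and 1 fell in lymph nodes and 2 rose and 2 fell in lung metastases. Their medians were 1.06, 1.64 and 0.44. Ccr7, the lymph node homing receptor, rose from 0.153 ± 0.137 CPM in FVB BM to 23.4 ± 8.02 in primary tumors and 6.59 ± 5.32 in lymph nodes. The integrin gene Itgb7 fell in all 3, by 0.79, 0.73 and 0.53 on the log2 scale. S1pr1, the egress receptor that Klf2 activates in T cells, rose from 0.217 ± 0.201 to 3.76 ± 1.63 CPM in primary tumors and had a mean of 1.18 CPM in the other TIM groups.

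Klf9 differed more between the marrow of the strains than between TIMs and BM. It read 58.5, 52.9 and 49.6 CPM in FVB BM and 11.4, 4.38 and 6.30 CPM in DBA2 BM, without overlap. DBA2 BM IMs thus held 0.140 times the FVB level (log2 -2.84 ± 0.32, adjusted p = 0.00104), and this held with any 1 library left out, at -3.31 to -2.57. In this comparison 21.1% of all genes were called, 9.57% as lower, and Klf13 was the only other member called. Primary tumor TIMs read 8.72, 37.1, 28.1, 20.1 and 39.3 CPM, below FVB BM in 5 of 5 libraries. The fall was 1.03 ± 0.39 on the log2 scale (adjusted p = 0.0446), and it was called in 3 of 8 fits with 1 library left out. Lymph node TIMs, at 33.5, 45.6, 45.8, 59.1 and 48.7 CPM, overlapped FVB BM (-0.20 ± 0.18, adjusted p = 0.414). LN4K1 lung TIMs, at 5.47, 3.55, 25.3, 15.0 and 25.0 CPM, overlapped DBA2 BM (0.93 ± 0.65, adjusted p = 0.341).

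The 10 glucocorticoid-responsive genes, read beside Klf9, were mixed in direction. In primary tumors 4 of 10 rose and 2 fell, in lymph nodes 3 of 9 tested rose and 2 fell, and in lung metastases 3 of 9 rose and 1 fell. Their medians were 0.44, 0.05 and -0.18. Tsc22d3, the glucocorticoid-induced leucine zipper, fell in primary tumors and lymph nodes by 1.54 and 1.09 log2 units and was not called in lung metastases (-0.56). The metallothionein gene Mt2 rose from 0.501 CPM in FVB BM to 21.3 in primary tumors and 10.4 in lymph nodes, and from 0.322 to 4.08 CPM in the DBA2 strain. Sgk1, a kinase, rose by 2.14 and 2.67 in the LN2E1 groups. Fkbp5, a chaperone of the receptor, rose by 1.99 in lung metastases, from a DBA2 BM level of 6.36 ± 2.20 CPM. Its FVB BM level was 49.5 ± 3.39 CPM, and the difference of DBA2 from FVB BM was -2.94 on the log2 scale (adjusted p = 0.000237). Of the 9 genes tested between the marrows, 3 were higher in DBA2 BM and only Fkbp5 was called lower. The receptor gene Nr3c1 rose by 0.43 in lymph nodes, fell by 0.50 in lung metastases and was not called in primary tumors (0.02).

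Klf13 was called in opposite directions in LN2E1 and LN4K1 TIMs. In FVB BM it read 434, 226 and 115 CPM, a wide spread with replicate 1 on top, against 79.95, 150.1, 103, 105 and 183 CPM in primary tumors and 129.8, 90.5, 82.7, 84.0 and 102 CPM in lymph nodes. It fell by 1.07 ± 0.39 on the log2 scale in primary tumors (adjusted p = 0.0368) and by 1.39 ± 0.34 in lymph nodes (adjusted p = 0.00929). Without FVB BM replicate 1 these were -0.45 (adjusted p = 0.312) and -0.80 (adjusted p = 0.0531), and neither passed. The primary tumor fall held in 3 of 8 fits with 1 library left out and in 4 of 7 other settings. It was also lost without FVB BM replicate 2 and without primary tumor replicates 1, 3 or 4 (-1.14 to -0.94). In DBA2 BM Klf13 read 101, 102 and 102 CPM, below all LN4K1 lung TIMs at 147, 131, 252, 144 and 261 CPM. The lung rise was 1.74-fold (log2 0.80 ± 0.25, adjusted p = 0.0426) and held in 4 of 8 fits with 1 library left out and in 5 of 8 other settings. The change in primary tumors was below that in lung metastases by -1.85 ± 0.50 (interaction, adjusted p = 0.0136), and without FVB BM replicate 1 this was -1.33 (adjusted p = 0.0548). DBA2 BM held 0.401 times the FVB BM level of Klf13 (adjusted p = 0.0418), which held in 1 of 6 fits with 1 library left out and in 4 of 7 other settings, and was -0.72 on the log2 scale without FVB BM replicate 1.

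**Figure D2:**
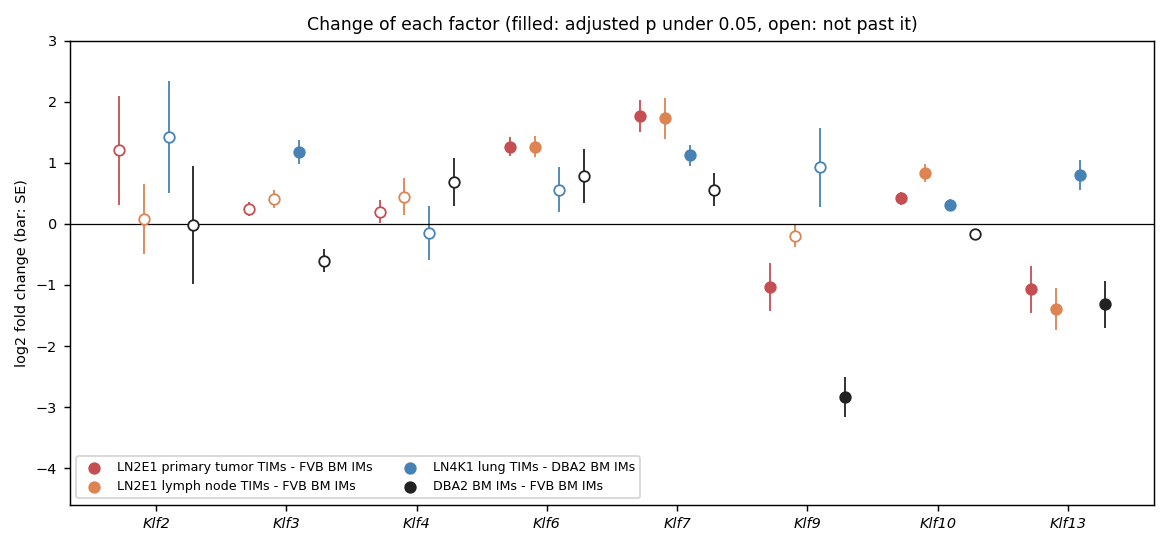
The log2 fold change of each KLF with its SE as a bar, for the 3 TIM groups against BM IMs of their strain and for DBA2 against FVB BM IMs, where a filled point marks an adjusted p under 0.05. Klf7 and Klf10 are filled above 0 in all 3 TIM comparisons, Klf13 is filled on opposite sides of 0 in LN2E1 and LN4K1 TIMs, and Klf9 lies at -2.84 between the marrows.

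Between the marrows of the strains the median log2 fold change of the 8 was -0.09. Besides the called Klf9 and Klf13, Klf3 lay at -0.61 ± 0.19 (adjusted p = 0.0531), which passed in 6 of 7 other settings and in 0 of 6 fits with 1 library left out. Groups did not overlap for 5 of 8 (Klf3, Klf7, Klf9, Klf10 and Klf13), against 42.0% of all genes, and Klf7 was the member of these that was higher in DBA2. Between lymph node and primary tumor TIMs no KLF was called by edgeR, against 11.7% of all genes, 6.15% higher and 5.55% lower. Klf9 and Klf10 had an unadjusted p under 0.05, as did 25.8% of all genes, and DESeq2 called 1, Klf10. Against marrow, groups did not overlap for 4 of 8 in primary tumors (58.1% of all genes), 3 of 8 in lymph nodes (42.9%) and 4 of 8 in lung metastases (34.8%).

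**Figure D3:**
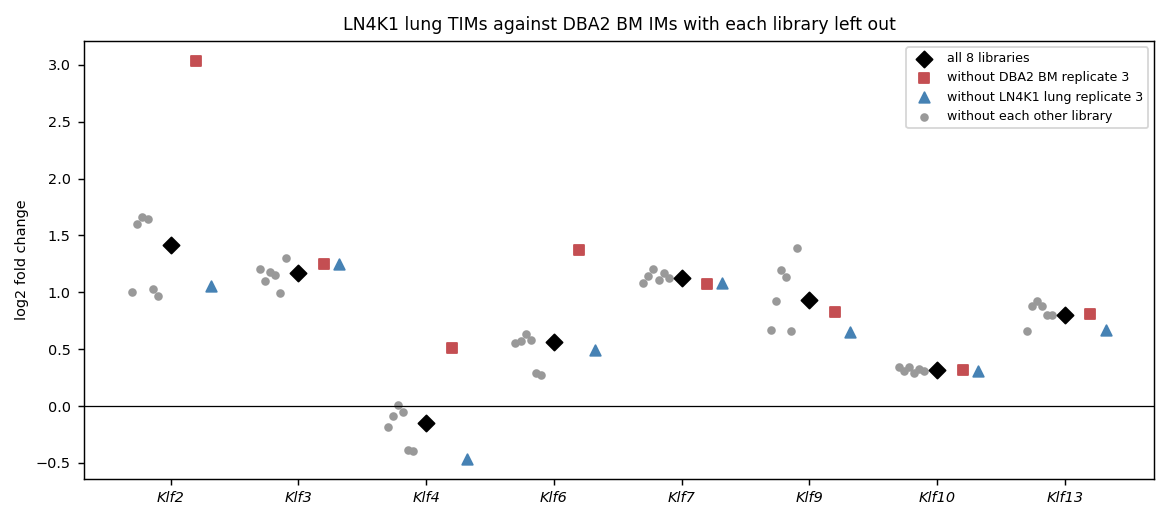
The log2 fold change of each KLF between LN4K1 lung TIMs and DBA2 BM IMs with all 8 libraries (diamond) and with 1 library left out (red square without DBA2 BM replicate 3, blue triangle without LN4K1 lung replicate 3, grey points for the others). Klf6 moves from 0.56 to 1.37 and Klf2 from 1.42 to 3.04 without DBA2 BM replicate 3, while Klf3, Klf7 and Klf10 shift little.

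The immediate early and tissue dissociation genes, a list of 22, moved with the comparisons against marrow. In primary tumors 17 of 22 rose and 2 fell, in lymph nodes 12 of 21 tested rose and 2 fell, and in lung metastases 11 of 22 rose, with medians of 1.40, 0.89 and 1.12. Ier3 rose by 4.05, 2.88 and 5.22 log2 units and Egr1 by 2.88, 1.35 and 1.59, whereas Fos fell by 1.66 in lymph nodes and was not called in the other groups (-0.34 and 0.12). Between lymph node and primary tumor TIMs 2 rose and 8 fell, with a median of -0.55. Their summed level was 12251 to 18188 CPM in FVB BM, 26025 to 30053 in primary tumors, 15258 to 21254 in lymph nodes and 32705 to 48317 in lung metastases. DBA2 BM replicate 3 summed to 33782 CPM, against 20665 and 18695 in the other DBA2 BM libraries. The part of this signal in the rises of Klf6, Klf7 and Klf10 was not tested.

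Across the 21 libraries, the member signals had distinct closest companions among 8016 expressed genes, given as descriptions over libraries that share strain and group. By Pearson correlation of log2 CPM these were Jund for Klf2 (r = 0.811), Atp6ap1 for Klf3 (0.879), Fosb for Klf4 (0.835), Ccl2 for Klf6 (0.904), Saa3 for Klf7 (0.945), Eed for Klf9 (0.940), Ywhaz for Klf10 (0.957) and Fam105b for Klf13 (0.909). With each group mean removed, a view added after the values were seen, the closest were the survival gene Mcl1 for Klf13 (r = 0.957) and Fosb for Klf4 (0.869). For Klf2 the AP-1 gene Jund (0.865) came after Trappc8 (0.900) and Siah2 (0.866), and for Klf6 the phosphatase gene Dusp1 (0.832) came after Cd69 (0.832). Jund and Dusp1 were taken for these pairs after the values were seen. Without the 2 libraries farthest from the median, r was 0.923 for Klf13 and Mcl1, 0.887 for Klf2 and Jund, 0.800 for Klf4 and Fosb and 0.716 for Klf6 and Dusp1. Without DBA2 BM replicate 3 these were 0.967, 0.870, 0.833 and 0.771.

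**Figure D4:**
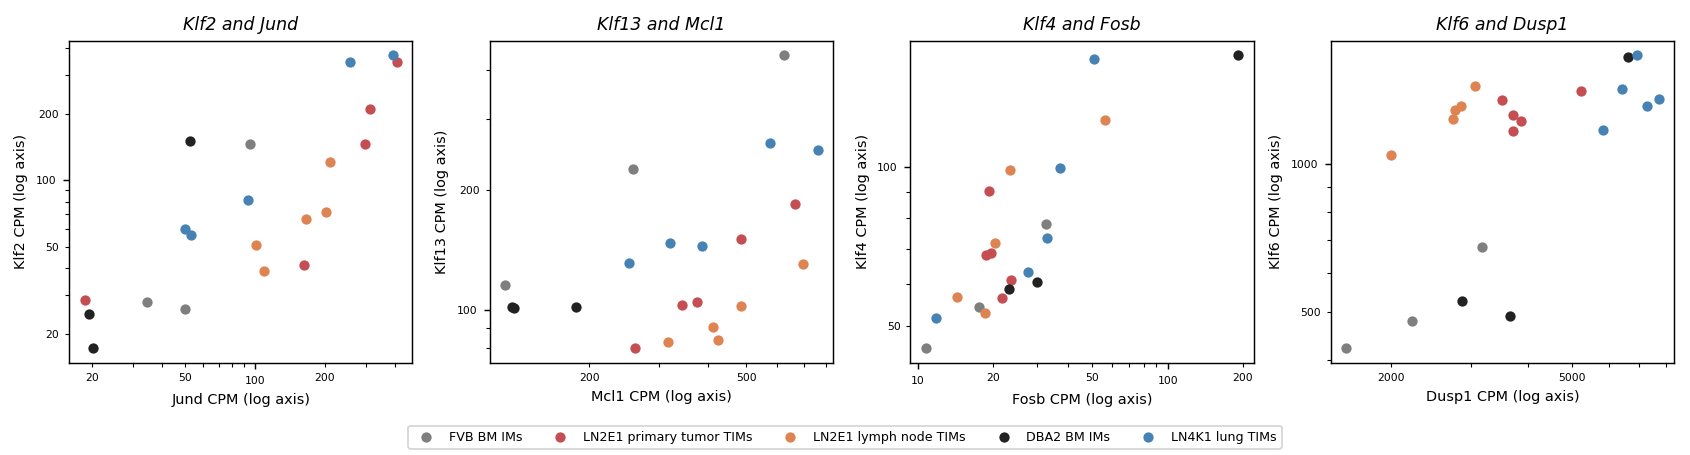
CPM of a KLF (vertical) against a correlated gene (horizontal) in the 21 libraries on log axes, with color by group, for Klf2 and Jund, Klf13 and Mcl1, Klf4 and Fosb, and Klf6 and Dusp1. After removal of the group means, r over all 21 libraries is 0.865, 0.957, 0.869 and 0.832, but not every pair rises together in every group. In primary tumors, Klf4 is highest in replicate 5 (90.2 CPM), where Fosb is 19.2 CPM, and Fosb is highest in replicate 3 (23.7 CPM).

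The same libraries were high for several KLFs. With group means removed, Klf2 correlated with Klf4 at r = 0.805, with Klf13 at 0.775 and with Klf6 at 0.601, and Klf4 with Klf6 at 0.718. In the LN4K1 lung group, replicates 3 and 5 were the highest for Klf2, Klf4, Klf9 and Klf13, and in primary tumors replicate 1 was the lowest for these 4. The transcript of Klf2 has 61.6% GC, more than 99.1% of 7590 genes, and those of Klf13, Klf4, Klf9 and Klf6 have 55.5%, 54.6%, 47.5% and 42.4%. The source of this shared spread was not tested.

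**Figure D5:**
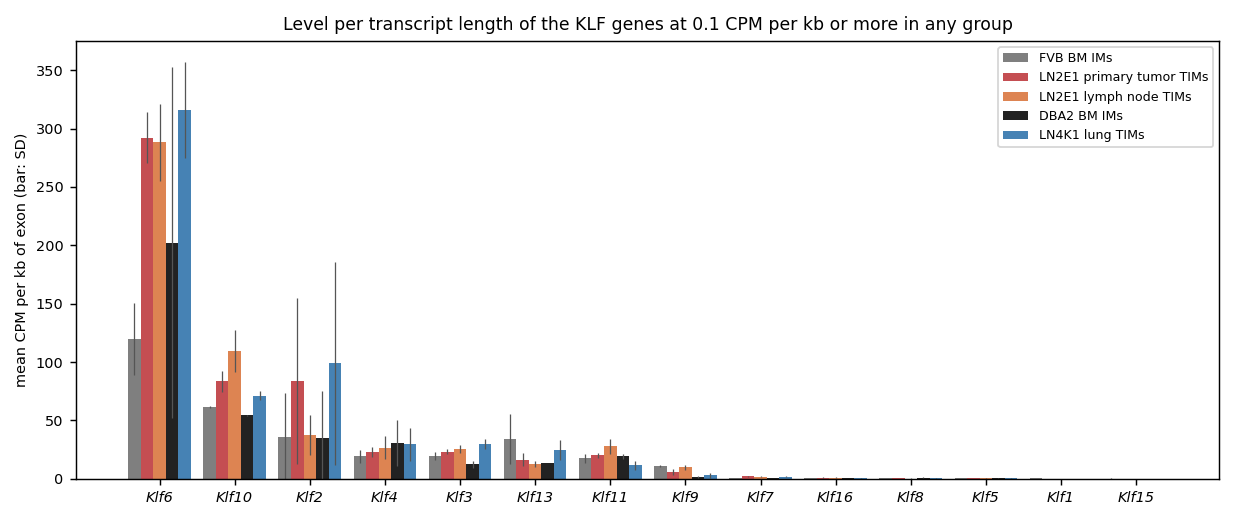
Mean CPM per kilobase of exon with the SD as a bar for 14 KLF genes in the 5 groups. Klf6 is the highest in every group, from 119.9 in FVB BM to 316 in LN4K1 lung metastases, and Klf7 is the lowest of the 8 members.

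Per kilobase of exon, Klf6 led the family in every group, at a mean of 119.9 CPM per kilobase in FVB BM, 292 in primary tumors, 288 in lymph nodes, 202 in DBA2 BM and 316 in lung metastases. Klf10 came next in FVB BM (61.5), lymph nodes (109) and DBA2 BM (54.2). In lung metastases the mean of Klf2 (98.8) exceeded that of Klf10 (71.2), but 3 of 5 libraries held 30.7 to 44.1 for Klf2 and 67.5 to 75.5 for Klf10. In primary tumors their means were 83.8 and 83.4, with Klf2 from 15.5 to 187 and Klf10 from 72.2 to 94.6. Klf7 was the lowest of the 8 in every group, from 0.574 to 1.97. Klf6 took 37.2% of the summed per-length level of the KLF family in FVB BM and 53.0% to 54.5% in the other groups, where the DBA2 BM share includes the high replicate 3. The 8 genes together took 93.7% to 97.8%.

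The table held 17 KLF genes, of which 11 had a mean of at least 1 CPM in every group, and Klf14 and Klf17 had at most 3 counts in every library. Of the 9 KLF genes that are no members, 2 rose and 3 fell among 7 tested in primary tumors, 1 rose and 2 fell among 6 in lymph nodes, and Klf11 alone fell among 4 in lung metastases. Their medians were 0.18, -1.27 and -0.47. Klf5, which drives proliferation of epithelium, rose from 1.66 ± 0.45 to 2.99 ± 0.81 CPM in primary tumors (adjusted p = 0.0481), where epithelial markers summed to 212 to 784 CPM against at most 3.97 in BM. Klf8, a CtBP-bound repressor, fell there from 4.70 ± 0.63 to 2.28 ± 0.79 CPM. Klf12, a relative of Klf8, rose from 0.018 to 0.387 CPM and Klf15, a metabolic regulator, fell from 0.425 to 0.045 CPM. Klf1, the erythroid factor, fell from 1.19 ± 0.34 CPM in FVB BM to 0.018 ± 0.034 in primary tumors. Of the SP factors, which share the KLF DNA-binding domain, 4 of 9 had a mean of at least 1 CPM in every group. In primary tumors Sp1 and Sp3 fell by 0.46 and 0.44 log2 units, 2 others rose, and no SP gene was called in lymph nodes or lung metastases. Medians of the SP genes were 1.05, 0.09 and -0.11, and setting genes with at most 3 counts in every library of a group to their bound left the medians of all these lists as given.

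In the order of group means, most neighbors overlapped in their libraries. For Klf7 the lymph node group lay above DBA2 BM and DBA2 BM above FVB BM without overlap. For Klf10 the lung metastases lay above FVB BM, and FVB BM above DBA2 BM, without overlap. For Klf3, FVB BM lay above DBA2 BM. For Klf2, Klf4, Klf6, Klf9 and Klf13 every pair of neighboring groups overlapped.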

How the data were processed

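RNA was measured by RNA-Seq in 21 sorted monocyte samples, and groups were taken from the sample labels. The deposited values were raw read counts per gene symbol. The authors trimmed adapters with BBDuk, aligned reads to mm10 with BBMap and counted them with featureCounts 1.5.2; SAMtools 1.8 was also named. The annotation and counting settings are not given in the sources used here. Libraries were prepared with a SMARTer ultra-low input kit and Nextera XT and did not record strand.

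Counts were tested in R 4.3.3 with edgeR 4.0.16, using the robust quasi-likelihood test, TMM factors and the default filter (minimum count 10, minimum total 15). Each comparison was fitted on its own groups, with Benjamini-Hochberg adjustment over all genes tested and a call at an adjusted p under 0.05. The interaction was the primary tumor change minus the lung metastasis change. SEs were approximated from the fold change and the F statistic. DESeq2 1.42.0, other filters, scalings and thresholds, a fit of all 5 groups and a replicate block were alternatives. All 8 KLFs passed the filter in every comparison. Levels used log2 CPM with a prior count of 2 or CPM; lengths and loci came from GENCODE vM21 (GRCm38) and promoters from RefSeq. Correlated genes were sought among those with a mean log2 CPM above 3; those given over all libraries are the highest, and some of those within groups are not. The genes named were the 8 KLFs, up to 4 of each list with the largest log2 fold change in size among those called in the comparison described, and a few with a role tied to a KLF. Others were named after their values were seen. Depth was 80772922 to 101043568 counts per library and bears on counting error only. Scripts were tested on simulated data with 200 changed genes. The members and gene lists were chosen with earlier results of these data known. A few genes of the lists are counted but not reported by name here.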

Additional observations from a re-analysis of the deposited data

Results flagged for a closer look

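Klf3 and Klf13 are given here because their change against marrow differed between the tumor models by a test of the difference itself. For Klf3, the change in LN2E1 primary tumors minus that in LN4K1 lung metastases was -0.91 on the log2 scale (quasi-likelihood test of edgeR, Benjamini-Hochberg adjusted p = 0.00987), and leaving out any 1 library kept the call. For Klf13 it was -1.85 (adjusted p = 0.0136), which became -1.33 (adjusted p = 0.0548) without FVB BM replicate 1. This contrast called 26.5% of all genes. It includes the difference between the marrows without tumor. By the same kind of test, DBA2 against FVB BM was -0.61 for Klf3 (adjusted p = 0.0531) and -1.32 for Klf13 (adjusted p = 0.0418). The remaining part of the contrast, the difference between primary tumor and lung TIMs, was not tested. Of 24 checks for a library far from the others in groups of 5, with chance expected to mark about 1 in 20, none was marked.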

How the results depend on the processing

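Each count below is of the 8 KLFs called. In primary tumors against FVB BM, 5 were called, against 1 as DEGs, 3 without a filter (47.8% of all genes), 3 with 10 counts in every library (64.4%), 3 with a replicate block (40.9%), 3 to 5 with 1 library left out and 4 to 5 otherwise. In lymph nodes, 4 were called, against 0 as DEGs, 4 to 5 with 1 library left out, 5 in the fit of all 5 groups and with DESeq2, which added Klf3, and 4 otherwise. In lung metastases, 4 were called, against 0 as DEGs, 2 with a replicate block (9.72% of all genes), 2 to 4 with 1 library left out, 3 without a filter, with 10 counts in every library, in the fit of all 5 groups and without both replicates 3, and 4 otherwise. Between lymph node and primary tumor TIMs, 0 were called by edgeR, with 2 at an unadjusted p under 0.05, against 1 in the fit of all 5 groups (14.3% of all genes), 1 with DESeq2 (19.4%) without shrinkage, 1 with shrinkage and 0 to 1 with 1 library left out. Between the marrows, 2 were called, against 0 as DEGs, 1 without a filter (15.2% of all genes), 1 to 2 with 1 library left out, 3 with DESeq2 size factors, in the fit of all 5 groups and with DESeq2, which added Klf3, and 2 otherwise. For the interaction, 2 were called, against 0 as DEGs, 1 to 3 with 1 library left out, 3 with DESeq2 and 2 otherwise. The DEG counts here are from the main edgeR test. In at least 1 other setting Klf7 in all 3 TIM groups, Klf6 in lymph nodes, Klf3 in lung metastases and Klf9 between the marrows also passed the DEG thresholds. DEG thresholds are stricter and leaving out a library reduces the samples. For the other settings the cause was not tested. Correlations of deviations were -0.297 to 0.297 for same-numbered libraries over all comparisons. Between lymph node and primary tumor TIMs they were -0.193 to 0.151 for the same number and -0.206 to 0.222 for different numbers. Such values cannot show whether a primary tumor and a lymph node library came from 1 mouse, so pairing is not known. With the block, Klf9 (adjusted p = 0.0663) and Klf13 (0.123) lost their call in primary tumors. In the lung Klf7 (0.0606), Klf10 (0.235) and Klf13 (0.159) lost it, and Klf2 gained one (0.0191). Between the marrows Klf13 lost it (0.0562) and Klf3 gained one (0.0134).

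Directions turned only for differences that were not called, namely these. Without replicate 3 of DBA2 BM and of LN4K1 lung, chosen after seeing the data, the lung difference of Klf4 was 0.20, and the interactions of Klf4 and Klf6 were -0.038 and -0.074. With 1 library left out, differences ranged from -0.31 to 1.37 for Klf2 in lymph nodes, -0.46 to 0.51 for Klf4 in lung metastases, and -0.060 to 0.041 for Klf6 and -0.21 to 0.059 for Klf7 between the LN2E1 groups. Between the marrows Klf2 ranged from -1.64 to 1.27 and Klf6 from -0.028 to 1.07. For the interaction Klf2 ranged from -1.80 to 1.02, Klf4 from -0.28 to 0.68 and Klf6 from -0.083 to 1.01. The cause was not tested. Shrunken DESeq2 values were not run for the interaction.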
